A study of Mus musculus with 6 samples.

Results

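The colony-stimulating factors are secreted proteins that control the production and survival of myeloid blood cells, and the genes Csf1, Csf2 and Csf3 encode 3 of them. The members were chosen by matching these symbols to the Ensembl identifiers of the deposited table, which gave 3 genes of 23644 listed. Bulk RNA-seq was run on cultured 4T1 cells, a line derived from a mouse mammary tumour. The groups were 3 libraries of 4T1 cells with the genotype Carmil3 knockout and 3 libraries of 4T1 cells with the genotype wild type, called control. Per the labels the knockout cells were clones grown from single cells, and the labels give neither how many clones were sequenced nor how the knockout was made. Effects of the knockout and differences that came with the cloning therefore cannot be told apart here. No label states separate cultures for the replicates, so the p-values here rest on a spread between libraries that may be only technical.

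CSF1, also called macrophage colony-stimulating factor, keeps monocytes and macrophages alive through the receptor tyrosine kinase CSF1R. CSF2, or granulocyte-macrophage colony-stimulating factor, acts through a specific alpha chain and the common beta chain, and CSF3, or granulocyte colony-stimulating factor, drives neutrophil production through CSF3R. Tumours of the 4T1 line are known for raising the number of granulocytes in the mice that bear them, and CSF3 made by the tumour cells is a known contributor. The messenger RNAs of such factors are typically short-lived, and repeats of the letters ATTTA in the 3′ untranslated region (AU-rich elements) are binding places for proteins that control their decay.

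The AU-rich stretches of the 3 members differ in density, and 1 site of each is shown because RNA-binding proteins that act on such sites are among the pathway genes described later. Each line gives 30 bases of the 3′ untranslated region from the GENCODE M21 transcript with the longest coding sequence, 5′ to 3′ on the transcript strand, with every ATTTA in capitals. The site is a stretch of 30 bases with the most ATTTA copies of its region.
Csf1: ataaggtcATTTAaatatctATTTAaaaaa
Csf2: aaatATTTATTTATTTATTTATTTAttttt
Csf3: tttATTTAtctctATTTAatATTTAtgcat
On GRCm38 the Csf1 site lies at chr3:107741104-107741133 on the minus strand, the Csf2 site at chr11:54247324-54247353 on the minus strand, and the Csf3 site at chr11:98702989-98703018 on the plus strand. The whole 3′ untranslated region of Csf2 is 317 bases long and holds 9 ATTTA copies, counted on the transcript strand with overlaps allowed. Of 15328 other genes with a region at least that long, taken at the same length from its 3′ end, 0.00652% held as many. The Csf3 region is 669 bases long with 6 copies, a number reached in 1.54% of 11635 other regions of that length. The Csf1 region is 2111 bases long with 4 copies, and 52.7% of 4278 other regions of that length held as many. The longer motif TTATTTATT, which contains ATTTA, was found in Csf2 with 4 overlapping copies and in 2.34% of other regions of its length. It was found with 0 copies in Csf3 and in 4.43% of other regions of that length, and with 0 copies in Csf1 and in 9.91% of other regions. These matches describe the letters of the annotated transcripts and are not measurements of decay.

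Depth was close to even. Values are in FPKM, a read density per exon length and sequencing depth. The number of reads behind each library was recovered from the steps between low values and lay between 18139161 and 19046816 in knockout libraries and between 17779131 and 18719088 in control libraries. Knockout replicate 3 stood apart from the other knockout libraries, with a chi-square per degree of freedom of 19.0 and 17.6 against them, beside 3.02 between knockout replicates 1 and 2. The controls were uneven too, with 10.5 between control replicates 2 and 3, beside 4.46 and 3.38 for control replicate 1 against replicates 2 and 3. Carmil3 was listed at 0, 0.0118 and 0.0241 FPKM in knockout replicates 1 to 3, against 0.0360, 0.0246 and 0.0117 FPKM in control replicates 1 to 3, too low in either group to check the labels. By limma on all genes tested, with a threshold of 0.05 on the adjusted p, 16.9% were higher and 18.7% lower in knockout cells. Of 10 epithelial markers 9 were listed and all 9 fell, though Krt7, Krt14, Epcam, Cdh1, Cldn4 and Cldn7 entered the test only through the control libraries, where they were high. The sums were 429 to 473 FPKM in knockout libraries and 1039 to 1137 FPKM in control libraries. Epcam averaged 0.0875 ± 0.0544 FPKM in knockout cells and 19.7 ± 0.0502 FPKM in control cells (SD, n = 3 each), while Krt8 averaged 217 ± 9.25 FPKM in knockout cells and 470 ± 19.6 FPKM in control cells. Of 15 leukocyte markers 10 were listed, with sums of 10.2 to 14.5 FPKM in knockout libraries and 25.5 to 28.0 FPKM in control libraries. Of the 3 that were tested 2 fell. S100a8 averaged 1.61 ± 0.507 FPKM in knockout cells and 12.0 ± 0.644 FPKM in control cells (SD, n = 3 each). Cd14 averaged 6.65 ± 1.32 FPKM in knockout cells and 10.8 ± 1.66 FPKM in control cells, and Cd68 did not pass. Without S100a8, Cd14 and Cd68, each over 1 FPKM in every library, the leukocyte sums were 0.985 to 1.48 FPKM in knockout libraries and 0.810 to 1.26 FPKM in control libraries. Most of these sums was Lyz2, with means of 1.08 FPKM in knockout cells and 0.851 FPKM in control cells. The pan-leukocyte gene Ptprc did not exceed 0.00614 FPKM in any library. Fibroblast markers summed to 17.8 to 18.3 FPKM in knockout libraries and 11.4 to 12.0 FPKM in control libraries, with Col1a2 at or near 0. The 2 tested fibroblast markers went opposite ways: Pdgfra averaged 17.6 ± 0.272 FPKM in knockout cells and 10.1 ± 0.135 FPKM in control cells (SD, n = 3 each) and rose, while Col1a1 measured 0.264, 0.296 and 0.252 FPKM in knockout replicates 1 to 3, against 1.40, 1.36 and 1.74 FPKM in control replicates 1 to 3, and fell. Col1a1 passed the filter only through the control libraries. Endothelial markers summed to at most 0.0682 FPKM in knockout libraries and 0.0572 FPKM in control libraries. The part of the epithelial, leukocyte and fibroblast marker differences in the results on the colony-stimulating factors was not tested.

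Csf3 was higher in the knockout cells and moved more than Csf1. It measured 77.8, 74.3 and 80.1 FPKM in knockout replicates 1 to 3, against 11.6, 12.0 and 11.3 FPKM in control replicates 1 to 3. The groups did not overlap, and the lowest knockout library was far above the highest control library. The means were 77.4 ± 2.94 FPKM in knockout cells and 11.7 ± 0.359 FPKM in control cells (SD, n = 3 each), a ratio of 6.64. Behind these values stand 2095, 1942 and 2053 recovered reads in knockout replicates 1 to 3 and 299, 302 and 299 reads in control replicates 1 to 3. On the log2(FPKM + 1) scale the change was 2.63 with a standard error of 0.05 and a 95% interval of 2.51 to 2.75, and limma gave an adjusted p of 9.25e-09 with Benjamini-Hochberg adjustment over 11171 genes tested. It ranked 6 of these genes by log2 change, the highest rise first. In bulk RNA a larger share of cells that express the gene and more RNA per cell cannot be told apart.

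Csf1 was higher in the knockout cells by a smaller factor. It measured 81.9, 82.5 and 75.9 FPKM in knockout replicates 1 to 3, against 55.5, 55.3 and 56.9 FPKM in control replicates 1 to 3. The groups did not overlap, and knockout replicate 3 was the lowest of its group. The means were 80.1 ± 3.69 FPKM in knockout cells and 55.9 ± 0.858 FPKM in control cells (SD, n = 3 each), a ratio of 1.43. Its recovered reads numbered 8239, 8066 and 7267 in knockout replicates 1 to 3 and 5332, 5193 and 5624 in control replicates 1 to 3. The log2 change of (FPKM + 1) was 0.51 with a standard error of 0.05 and a 95% interval of 0.39 to 0.63, with an adjusted p of 0.000174 by limma, and it ranked 417 of 11171 genes by log2 change. This call was lost when the test was set against a 1.5-fold change (adjusted p = 1), since the change itself was smaller than that.

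Csf2 was at the lower limit of the measurement in both groups. It was listed at 0.0656, 0 and 0.138 FPKM in knockout replicates 1 to 3, against 0.0687, 0.141 and 0.134 FPKM in control replicates 1 to 3. These values correspond to 1, 0 and 2 reads in the knockout libraries and 1, 2 and 2 reads in the control libraries, and the groups overlap. Every library lay below the level of 3 reads, taken here as the floor, which for this gene is between 0.197 and 0.211 FPKM. Summed over the libraries of a group, 3 knockout reads gave 0.0673 FPKM with an exact 95% Poisson interval of 0.0139 to 0.197 FPKM, and 5 control reads gave 0.114 FPKM with an interval of 0.0371 to 0.267 FPKM. Such intervals cover counting error only. A two-sided exact permutation test over the 6 libraries gave p = 0.4, and with 3 libraries a group no p below 0.1 can be reached. The ratio of knockout to control reads, scaled by the read totals, was 0.589 with an exact 95% interval of 0.0915 to 3.03. That interval also covers counting error only, and a difference within it could not be detected from these reads. The gene did not enter the test over all genes, which required 1 FPKM in at least 3 libraries. An antisense gene, Gm12223, overlaps Csf2 in the annotation and was listed at no more than 0.104 FPKM in knockout libraries and 0.213 FPKM in control libraries. Reads of the pair cannot be told apart without a known strand setting. No annotated gene overlaps Csf1 or Csf3.

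**Figure D1:**
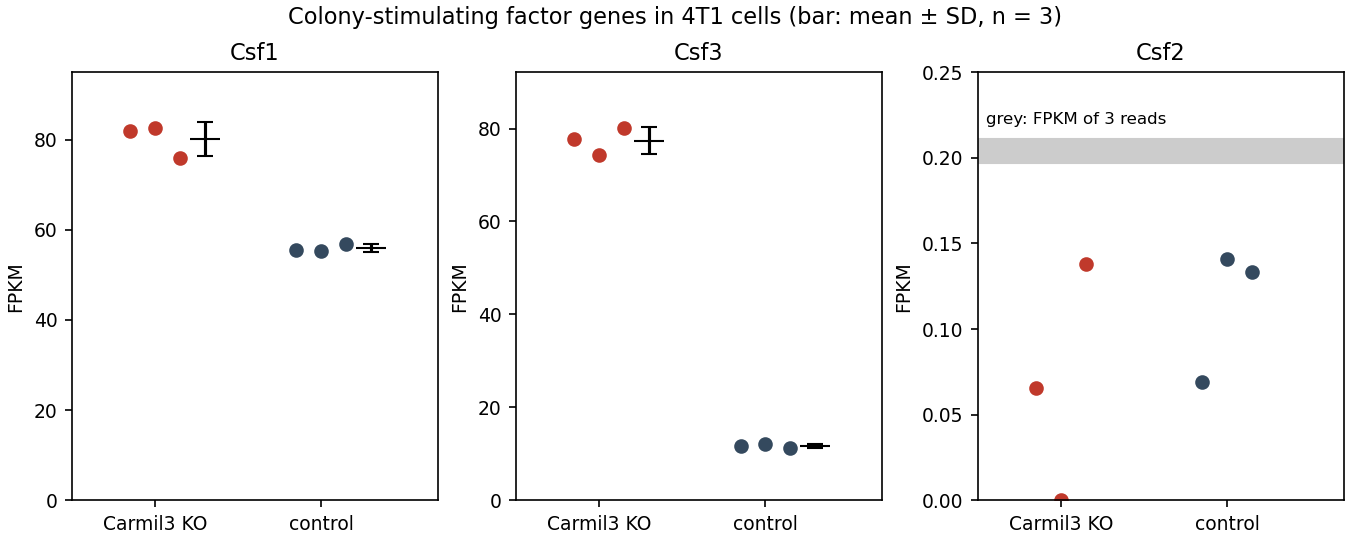
FPKM of Csf1, Csf3 and Csf2 in each library, with Carmil3 KO left of control and the mean ± SD (n = 3) beside the points of Csf1 and Csf3. Csf3 sits between 74.3 and 80.1 FPKM in knockout libraries and between 11.3 and 12.0 FPKM in control libraries, and every Csf2 point lies under the grey band that marks the FPKM of 3 reads.

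Both tested members, Csf1 and Csf3, passed the test in the upward direction, as did 16.9% of all genes tested, while 18.7% of all genes were lower in knockout cells and 35.6% passed in either direction. Groups that did not overlap were found for both, and for 50.5% of all genes tested. With so many genes changed between these groups, a rise by itself is a common event in the table. Replicate spread was small for both members: the coefficient of variation of Csf3 was 3.80% in knockout libraries and 3.08% in control libraries, and that of Csf1 was 4.60% in knockout libraries and 1.53% in control libraries.

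The 3 genes can be ordered by level because FPKM is scaled by exon length. By group mean the order was Csf1, Csf3 and Csf2 in both groups, but the gap between Csf1 and Csf3 differed. In knockout cells Csf1 and Csf3 were at nearly the same level, their ranges overlapped, and they did not differ beyond the spread between libraries. In control cells Csf1 stood clearly above Csf3, with no overlap. Csf2 was lowest in both groups. The level of Csf3 was at percentile 97.7 of all listed genes in knockout cells and at percentile 81.0 in control cells, while Csf1 was at percentile 97.8 in knockout cells and at 96.5 in control cells.

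The ratio of Csf3 to Csf1 FPKM was 0.950, 0.900 and 1.06 in knockout replicates 1 to 3, against 0.210, 0.217 and 0.199 in control replicates 1 to 3. The values of the groups stood far apart, and knockout replicate 3, with the highest Csf3 and the lowest Csf1 of its group, had the highest ratio. The difference in log2 ratio of (FPKM + 1) was 2.12, higher in 3 of 3 knockout libraries than in any control library, with p = 0.1 by a two-sided exact permutation test, the smallest value the design allows. Adjusted over the 3 ratios between members, p stayed at 0.1. The other 2 ratios have Csf2 in them, and since that gene was at the limit of the measurement they add little to the changes of Csf1 and Csf3: Csf2 over Csf1 differed by -0.57 and Csf3 over Csf2 by 2.69 on the same scale, each with exact permutation p = 0.1. The 3 genes together summed to 158 ± 1.98 FPKM in knockout cells and 67.7 ± 0.576 FPKM in control cells (SD, n = 3 each). Csf3 made up 49.1% ± 2.01 of that sum in knockout cells and 17.2% ± 0.641 in control cells (SD, n = 3 each).

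**Figure D2:**
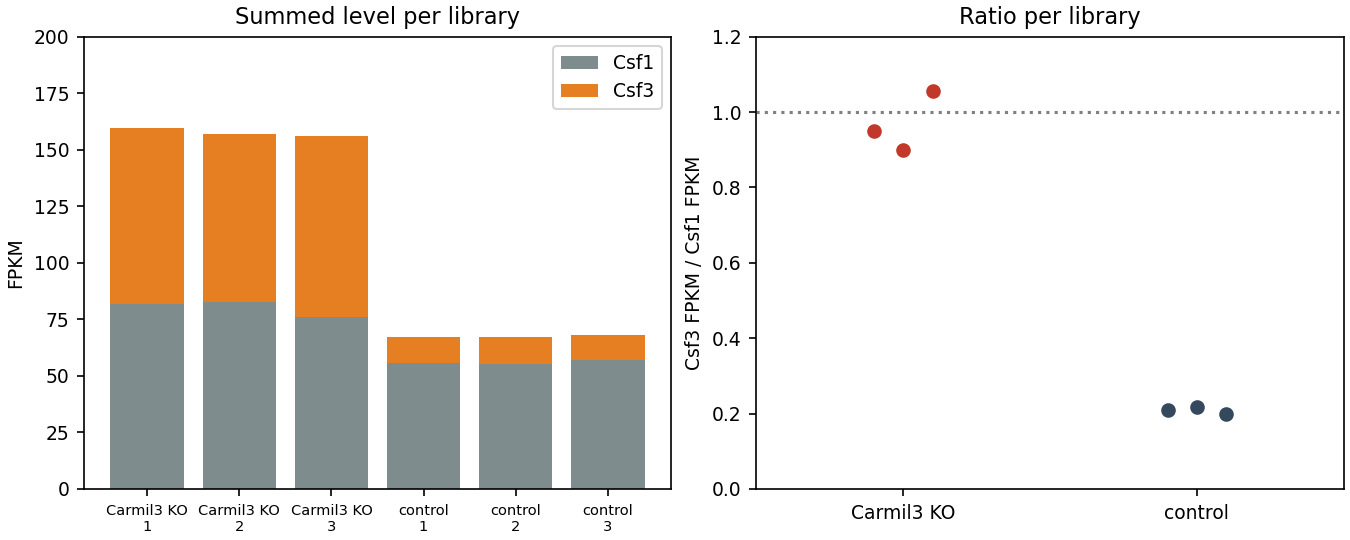
Left, the summed FPKM of Csf1 and Csf3 in each library, knockout libraries first; right, the ratio of Csf3 to Csf1 FPKM per library, with the dotted line at equal levels. The knockout ratios lie between 0.900 and 1.06 and the control ratios between 0.199 and 0.217.

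The receptors for these factors were nearly silent in both groups. Of the 5 receptor genes 4 were listed, and the highest value was 0.0451 FPKM in knockout libraries and 0.115 FPKM in control libraries, both for Csf1r, the CSF1 receptor. Csf3r, the CSF3 receptor, was listed at 0 in all knockout libraries and in 2 of 3 control libraries, with 0.0156 FPKM in control replicate 2. The common beta chain Csf2rb and its near-identical copy Csf2rb2, between which reads may be split, did not exceed 0.0462 and 0.0244 FPKM in any library. Csf2ra was not analysed here. Il34, which encodes the other ligand of CSF1R, measured 5.36, 5.46 and 4.76 FPKM in knockout replicates 1 to 3, against 3.82, 4.45 and 3.65 FPKM in control replicates 1 to 3. It was higher in knockout cells, with a log2 change of 0.32 and an adjusted p of 0.0169 by limma. That call was lost without the expression filter (adjusted p = 0.0509) and without any 1 of knockout replicate 1 (0.0535), knockout replicate 2 (0.0573), control replicate 1 (0.0667) or control replicate 3 (0.0582).

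Among 20 genes of signal transduction downstream of these receptors 17 were tested, of which 6 rose, 2 fell and 9 did not pass. The share that rose was 35.3% and the share that fell 11.8%, beside 16.9% and 18.7% of all genes tested, and the median log2 change of the 17 was 0.06 beside -0.01 for all genes tested. Jak2, the kinase bound to the receptors for CSF2 and CSF3, measured 131, 128 and 128 FPKM in knockout replicates 1 to 3, against 58.3, 59.2 and 53.8 FPKM in control replicates 1 to 3. Its groups stood well apart, with a log2 change of 1.16 and an adjusted p of 1.87e-06 by limma. Socs3, an inhibitor that binds the CSF3 receptor, averaged 18.5 ± 0.577 FPKM in knockout cells and 9.09 ± 0.834 FPKM in control cells (SD, n = 3 each), a log2 change of 0.95. Stat3, the main transcription factor downstream of CSF3R, averaged 13.4 ± 0.611 FPKM in knockout cells and 9.98 ± 0.947 FPKM in control cells, and Socs1 rose by 0.51 on the log2 scale. Stat5a and Stat5b, which carry the CSF2 signal, had log2 changes of 0.21 and 0.02 that did not pass the test (adjusted p = 0.065 and 0.867, limma). Lyn, a Src family kinase, fell, with a log2 change of -0.32. Socs2, another inhibitor of the family, also fell (log2 change -0.87), and it reached 1 FPKM in control libraries only.

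Transcription factors described as acting on these genes changed in both directions. Of 23 genes 19 were tested, of which 11 rose (57.9%), 5 fell (26.3%) and 3 did not pass, beside 16.9% higher and 18.7% lower of all genes tested, with a median log2 change of 0.26. The largest rise was that of Nfkbiz, which encodes the nuclear inhibitor-of-NF-kB family protein IkB-zeta, with 18.1, 17.0 and 17.8 FPKM in knockout replicates 1 to 3, against 3.76, 3.89 and 3.78 FPKM in control replicates 1 to 3. The groups did not overlap, and the log2 change was 1.95 with an adjusted p of 7.81e-08 by limma. Nfkbia, the inhibitor IkB-alpha and itself an NF-kB target, averaged 48.6 ± 2.63 FPKM in knockout cells and 16.6 ± 0.920 FPKM in control cells (SD, n = 3 each). Elf3, an epithelial ETS factor, averaged 6.22 ± 0.213 FPKM in knockout cells and 2.47 ± 0.222 FPKM in control cells, and Fosl1, an AP-1 subunit, averaged 93.7 ± 0.846 FPKM in knockout cells and 54.4 ± 3.34 FPKM in control cells. The NF-kB subunit genes themselves moved less: Relb rose by 0.60, Nfkb2 by 0.26 and Nfkb1 by 0.23 on the log2 scale, and Rela had a log2 change of -0.06 that did not pass (adjusted p = 0.512, limma). Nfkb1 missed the threshold when control replicate 1 was left out (adjusted p = 0.062, limma) and relative to its chromosomal neighbours (0.223). Rel had a log2 change of -0.24 (adjusted p = 0.0442, limma), a call that was lost without the filter (0.0957), with quantile scaling (0.067), with the replicate block (0.0636), relative to its chromosomal neighbours (0.484) and without any 1 library other than knockout replicate 1 (0.0905 to 0.128). Among the genes that fell were Ets2, with 3.29 ± 0.220 FPKM in knockout cells and 9.44 ± 0.794 FPKM in control cells, and Ets1, with a log2 change of -0.49. Jund and Junb, AP-1 subunits, fell with log2 changes of -0.81 and -0.43, and the Junb call did not hold relative to the median of its chromosomal neighbours (adjusted p = 0.129, limma). Cebpb and Cebpd, factors of the C/EBP family, rose by 0.40 and 0.78, and Cebpd reached 1 FPKM in knockout libraries only.

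RNA-binding proteins that act on AU-rich or stem-loop elements of cytokine messengers all passed the expression filter. Of 13 tested 4 rose (30.8%), 1 fell (7.69%) and 8 did not pass, beside 16.9% higher, 18.7% lower and 35.6% in either direction of all genes tested, and the median log2 change was 0.08. Zc3h12a, which encodes Regnase-1, an endonuclease that cleaves cytokine messengers at stem-loops, measured 8.14, 8.21 and 8.38 FPKM in knockout replicates 1 to 3, against 2.37, 2.05 and 2.65 FPKM in control replicates 1 to 3. The groups lay far apart, with a log2 change of 1.47 and an adjusted p of 2.88e-06 by limma. Zfp36, which encodes tristetraprolin, a protein that binds AU-rich sites and speeds decay, averaged 2.69 ± 0.321 FPKM in knockout cells and 2.70 ± 0.150 FPKM in control cells (SD, n = 3 each). Its relative Zfp36l1 fell, with a log2 change of -0.37, a call that did not hold relative to its chromosomal neighbours (adjusted p = 0.368, limma), while Zfp36l2 had a log2 change of 0.07 that did not pass. Elavl1, which encodes the stabilising protein HuR, had a log2 change of 0.13 (adjusted p = 0.117, limma), and Hnrnpd, which encodes AUF1, had -0.05 (adjusted p = 0.648, limma). Tia1 and Khsrp rose by 0.33 and 0.24 on the log2 scale. Neither call held relative to the chromosomal neighbours (adjusted p = 0.204 and 0.312 by limma), and that of Khsrp was also lost without the filter and without any 1 of knockout replicates 1 and 2 and control replicates 1 and 2, where adjusted p lay between 0.0578 and 0.0762.

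**Figure D3:**
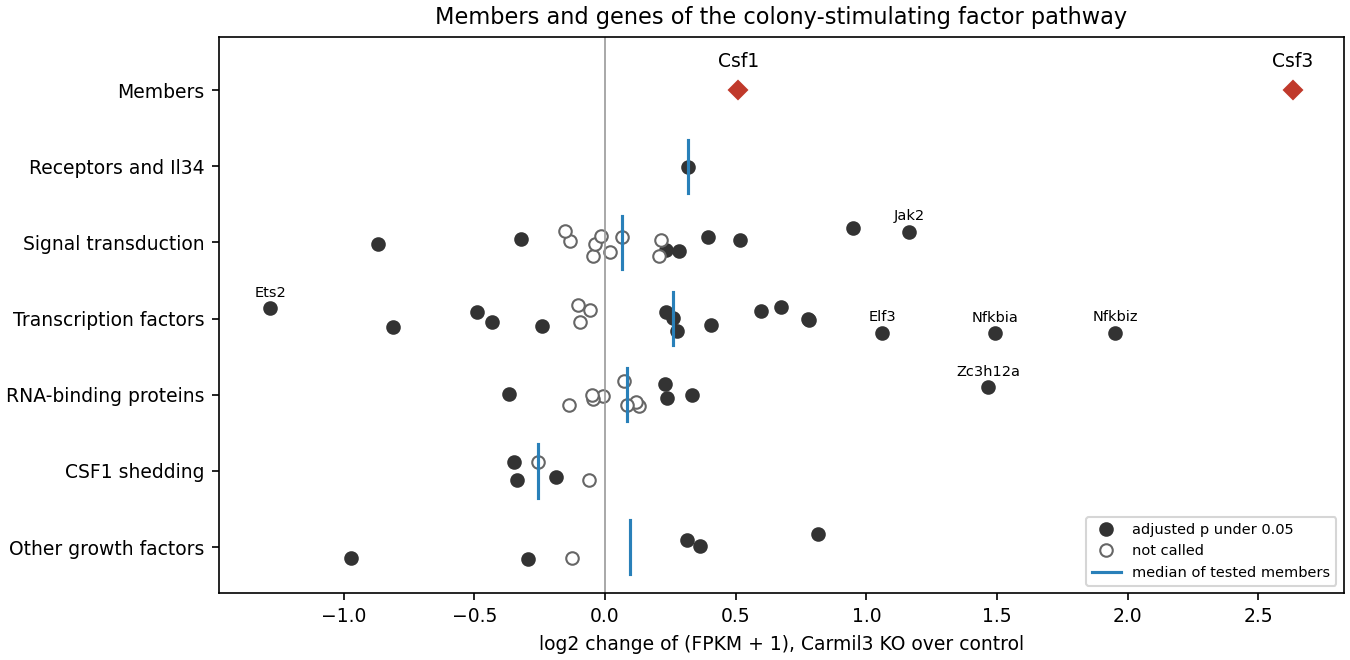
Log2 change of (FPKM + 1), Carmil3 KO over control, for Csf1 and Csf3 (diamonds) and for the tested genes of the 6 pathway lists, 1 row per list; filled points passed an adjusted p of 0.05 and blue bars mark the median of the tested members. Csf3 at 2.63 lies to the right of every pathway gene, the nearest being Nfkbiz at 1.95.

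CSF1 is also made as a form anchored in the cell membrane that the protease ADAM17 releases. Adam17 averaged 20.5 ± 0.780 FPKM in knockout cells and 21.4 ± 0.746 FPKM in control cells (SD, n = 3 each; adjusted p = 0.429, limma). Rhbdf1 and Rhbdf2, which encode the iRhom proteins that bring ADAM17 to the surface, fell with log2 changes of -0.35 and -0.34, and the Rhbdf1 call did not hold relative to its chromosomal neighbours (adjusted p = 0.0621, limma). Of 5 tested genes of this list 3 fell, 0 rose and 2 did not pass, beside 18.7% lower and 16.9% higher of all genes tested. The member that fell besides the iRhom genes was Adam10 (log2 change -0.19), whose call was lost without the filter and without any 1 of knockout replicates 1 and 2 and control replicates 1 and 2 (adjusted p between 0.0583 and 0.103, limma). Timp3 was not analysed here.

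Of 17 other haematopoietic growth factor genes 13 were listed and 6 tested, of which 3 rose and 2 fell, beside 16.9% higher and 18.7% lower of all genes tested. Kitl, the ligand of the receptor KIT on blood progenitors and mast cells, averaged 5.00 ± 0.407 FPKM in knockout cells and 2.40 ± 0.121 FPKM in control cells (SD, n = 3 each), a log2 change of 0.82. Tslp, a cytokine that acts on dendritic cells, was the most abundant of the list, with 185, 184 and 237 FPKM in knockout replicates 1 to 3, against 158, 157 and 152 FPKM in control replicates 1 to 3. Its rise (log2 change 0.36, adjusted p = 0.0199, limma) was lost without the filter (0.0671) and without control replicate 1 (0.0582), 2 (0.0541) or 3 (0.0619). Vegfa rose by 0.31, and Lif, an interleukin-6 family cytokine, fell by 0.30 on the log2 scale. Il15, a growth factor of lymphocytes, fell (log2 change -0.97) and reached 1 FPKM in control libraries only. The other 7 listed genes, namely Flt3l, Il1a, Il1b, Il6, Il7, Il33 and Thpo, were below the filter and not tested. Their highest value was 1.03 FPKM in knockout libraries, for Il33, and 0.885 FPKM in control libraries, for Flt3l. Il33, Il1b, Il1a and Il6 averaged 0.879, 0.584, 0.530 and 0.111 FPKM in knockout cells. In control cells they averaged 0.133, 0.0967, 0.138 and 0.0226 FPKM. Their groups did not overlap, while those of Flt3l, Il7 and Thpo overlapped. Among all genes tested 50.5% did not overlap, a share counted above the filter that these genes did not pass. Il6 was the lowest of those without overlap, at 0.0227, 0.0232 and 0.0220 FPKM in control replicates 1 to 3, from a few reads.

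Over the 6 pathway lists 85 genes were named, 79 were listed and 61 tested, of which 25 rose (41.0%), 13 fell (21.3%) and 23 did not pass, beside 16.9% and 18.7% of all genes tested. The lists were assembled with earlier results of these data known, so these shares describe the lists and are no independent evidence. Of the tested genes 3, namely Socs2, Cebpd and Il15, reached 1 FPKM in 1 group only and so entered the test through the group in which they were high.

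The changes were also set beside those of the genes next to each member on the chromosome. Csf3 and Csf2 both lie on chromosome 11 (98701263 to 98703629 on the plus strand and 54247271 to 54249667 on the minus strand, GRCm38) and Csf1 on chromosome 3 (107741048 to 107760469 on the minus strand). The rise of Csf3 was not shared by the genes beside it. Med24, a Mediator subunit gene that lies 962 bases away, averaged 11.2 ± 0.712 FPKM in knockout cells and 12.8 ± 0.647 FPKM in control cells (SD, n = 3 each; adjusted p = 0.0609, limma). Psmd3, a proteasome subunit gene 5284 bases to the other side, fell, with 36.7 ± 0.650 FPKM in knockout cells and 46.4 ± 4.03 FPKM in control cells and a log2 change of -0.33. The 40 nearest tested neighbours of Csf3 had a median log2 change of 0.00, with 6 higher and 8 lower. Of all genes tested 16.9% were higher and 18.7% lower.

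The neighbourhood of Csf1 was shifted upward. Its 40 nearest tested neighbours had a median log2 change of 0.15, with 13 higher and 1 lower. Of all genes tested 16.9% were higher and 18.7% lower. On the side of lower coordinates Ahcyl1, 44488 bases away, had a log2 change of 0.00 (adjusted p = 0.965, limma). On the other side the glutathione transferase gene Gstm5, at 135352 bases, averaged 10.4 ± 1.60 FPKM in knockout cells and 5.04 ± 0.691 FPKM in control cells (SD, n = 3 each), a log2 change of 0.91. Relative to the median of its neighbours the log2 change of Csf1 was 0.36 with an adjusted p of 0.00138 by limma, smaller than 0.51 and still past the threshold. The median was subtracted as a fixed value, so this p leaves out the spread of the neighbours, from -0.48 to 1.21. Whether Csf1 departs from its neighbourhood was not tested. The same centring left Csf3 at 2.63. The neighbours of Csf2 had a median log2 change of -0.06. P4ha2 and Fnip1, the nearest genes at 1 FPKM or more, 115606 and 188532 bases to either side, had log2 changes of -0.21 and -0.13 and did not pass the test (adjusted p = 0.0678 and 0.197, limma).

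**Figure D4:**
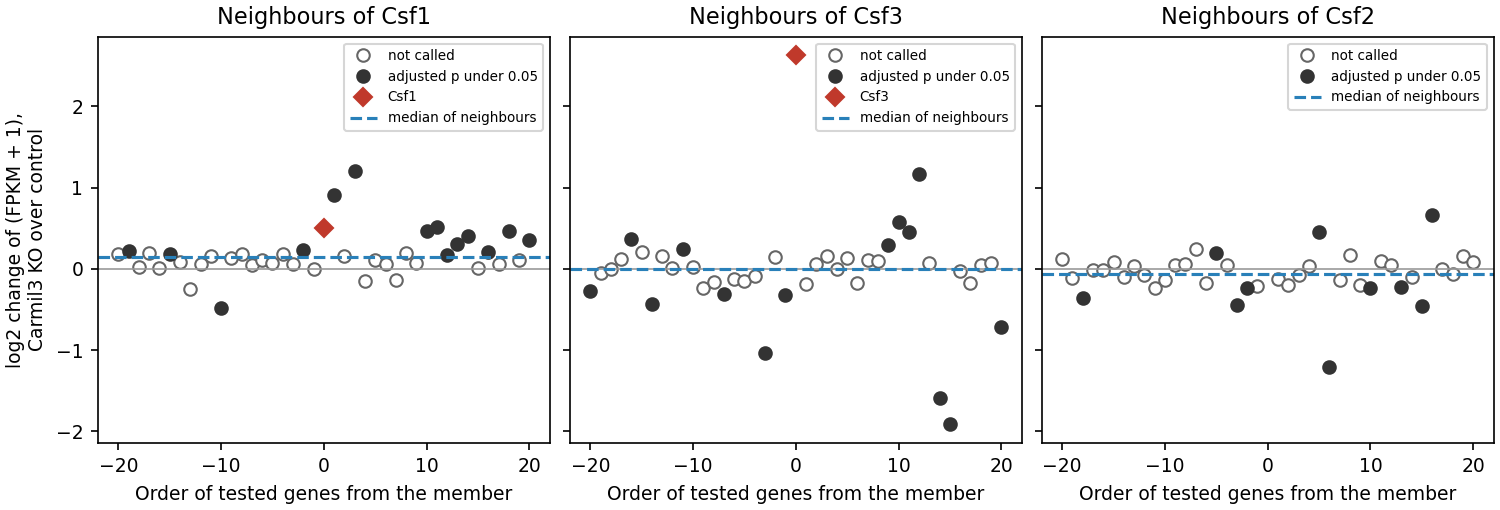
Log2 change of (FPKM + 1), Carmil3 KO over control, of the 20 tested genes on either side of Csf1, Csf3 and Csf2, in gene order; the diamond is the member, filled points passed an adjusted p of 0.05 and the dashed line is the median of the neighbours. Csf3 at 2.63 stands above all its neighbours, and most neighbours of Csf1 lie above 0, with a median of 0.15.

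The genes whose profile was most like that of each member were looked up by distance. It was the root-mean-square distance over the 6 libraries between log2(FPKM + 1) values, each taken relative to the gene's own control mean. The candidates were 7056 tested genes that averaged 5 FPKM or more, without predicted, clone-named or unnamed genes. For Csf3 the nearest were Sele, Stc1 and Ccl2, at distances of 0.26, 0.30 and 0.33. Their log2 changes were 2.27, 2.23 and 2.17, beside 2.63 for Csf3, and these distances mostly reflect that gap. Sele, which encodes the adhesion molecule E-selectin, averaged 17.3 ± 0.308 FPKM in knockout cells and 2.79 ± 0.204 FPKM in control cells (SD, n = 3 each). Ccl2, a monocyte-attracting chemokine gene, averaged 61.9 ± 3.55 FPKM in knockout cells and 13.0 ± 0.492 FPKM in control cells. For Csf1 the nearest were Col8a1, Lrig1 and Frmd4a, at distances of 0.03, 0.04 and 0.04. Col8a1, a collagen chain gene, averaged 52.5 ± 2.58 FPKM in knockout cells and 37.0 ± 0.753 FPKM in control cells. No profile was taken for Csf2, since no library held more than 2 reads.

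Libraries were also left out in turn. Without knockout replicate 3, the library that stood apart, the log2 change was 2.61 for Csf3 and 0.55 for Csf1, and both calls held. With any 1 library left out the log2 change lay between 2.61 and 2.66 for Csf3 and between 0.49 and 0.55 for Csf1, and adjusted p reached at most 6.19e-07 for Csf3 and 0.00222 for Csf1 by limma. With the test set against a 1.5-fold change, Csf3 was called with an adjusted p of 3.36e-08.

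**Figure D5:**
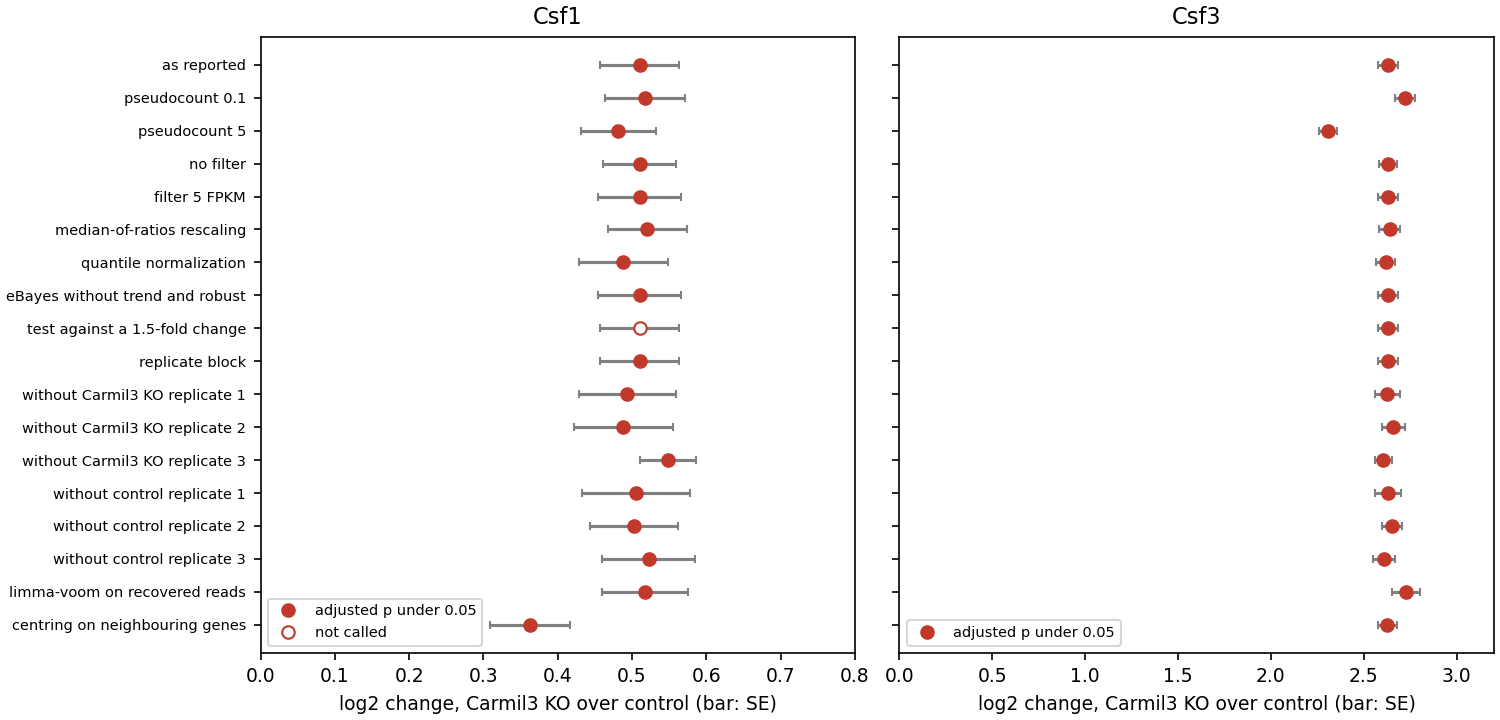
Log2 change, Carmil3 KO over control, of Csf1 and Csf3 as reported and under 17 other settings, 1 row each, with bars of 1 standard error. Points of Csf3 lie between 2.31 and 2.73 and are all filled (adjusted p under 0.05), and the open point of Csf1 is the test against a 1.5-fold change.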

How the data were processed

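The deposited table holds 1 column of FPKM per library, a unit read from the values. Tools named in the submitters' processing notes are HTSeq 0.6.0, TopHat2 2.0.12, TopHat, Bowtie2, Bowtie and CASAVA, with build mm10; no source used here gives their roles, the annotation or the strand setting. Groups came from the titles. Identifiers were matched to GENCODE M21 (GRCm38): 23577 of 23644 had a symbol. FPKM times exon length came out as whole multiples of 1 step per library for between 91.9% and 92.2% of values under 500 reads (within 0.02 of a read), which gave the read totals. These are relative and approximate.

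Values were tested as log2(FPKM + 1), which understates the change of low genes, with limma 3.58.1 under R 4.3.3 (empirical Bayes, trended and robust). The 11171 genes tested reached 1 FPKM in 3 or more of the 6 libraries, with Benjamini-Hochberg adjustment and a threshold of 0.05. The fit was tested on simulated data in which no library stood apart as knockout replicate 3 did, so that gives no error rate for these data. No 2 libraries of a group were alike within counting error (chi-square over degrees of freedom 3.02 to 19.0). Python 3.11.15, numpy 2.4.6, pandas 2.3.3, scipy 1.17.1 and matplotlib 3.10.9 were also used. The members, the lists and the settings were chosen with earlier results of these data known. From each pathway list the text names by rule up to 4 called genes per direction with a higher group mean of at least 2 FPKM. Of these, 1 gene is not reported here. Other list genes were named after their values were seen, for their role: Stat5a, Stat5b, Socs2, the NF-kB subunits, Cebpb, Cebpd, Zfp36, Zfp36l2, Elavl1, Hnrnpd, Adam17, Il15 and those below the filter. Overlapping genes and near-identical copies may share reads. Alternatives were other pseudocounts, filters, scalings and variance settings, a null of 1.5-fold and a block on replicate number. Others were each library left out with the tested genes kept, and voom weights on recovered reads. The last was centring each gene on the median change of its 20 nearest tested genes on each side. That median was subtracted as a fixed value, so the adjusted p leaves out the spread of the neighbours.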

Additional observations from a re-analysis of the deposited data

How the results depend on the processing

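The rise of Csf3 kept its direction and call under all 17 alternatives. That of Csf1 did so under all but the test against a 1.5-fold change, where its log2 change of 0.51 had an adjusted p of 1. Under that test 118 genes were higher and 193 lower, and 6 and 2 of the pathway genes. Leaving out 1 library gave between 1182 and 2041 higher genes and between 1358 and 2218 lower genes, the lowest counts being those without control replicate 1. The log2 difference of Csf2 was -0.06 and became -0.42 with a pseudocount of 0.1, both from at most 2 reads per library. Without the filter limma gave Csf2 an adjusted p of 0.555. With 1 library left out, and no test, the difference lay between -0.017 (without knockout replicate 2) and -0.11 (without knockout replicate 3). The other settings gave Csf2 no value. Same-numbered deviations correlated at -0.06, 0.15 and 0.10, and differently numbered ones at between -0.20 and 0.08. With 3 libraries a group these values cannot show whether replicate numbers pair the libraries. With the replicate block 1900 genes were higher and 2127 lower, and adjusted p was 0.00136 for Csf1 and 4.9e-06 for Csf3 (limma). Of the 26 pathway genes named by rule, 17 kept their call under every alternative that tested them, other than the 1.5-fold test. Among the 17, Socs1 and Kitl did not pass the stricter expression filter and had no value under it. Under the 1.5-fold test too, 7 genes kept their call. None of the 26 changed sign. Genes that missed the test did: with 1 library left out the log2 change lay between -0.043 and 0.069 for Stat5b, -0.049 and 0.065 for Zfp36, -0.12 and 0.0046 for Hnrnpd, and -0.0067 and 0.0095 for Ahcyl1. Quantile scaling gave 0.023 for Zfp36 and -0.016 for Ahcyl1. Relative to chromosomal neighbours it was 0.018 for Hnrnpd, 0.17 for Adam17 and -0.14 for Ahcyl1, the last with an adjusted p of 0.0484 (limma). Causes were not tested. Stat5a, Elavl1, Med24 and P4ha2 passed the test under 1 to 3 alternatives each. Another scaling moved the median log2 change of all genes by less than 0.1. Depth limits Csf2, the receptors and Il6, whose values rest on a few reads.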
